A study of Mus musculus with 8 samples.

Results

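The mRNA levels of 33 genes of cholesterol and fatty acid synthesis were followed in natural killer (NK) cells, the innate lymphocytes that kill tumour and virus-infected cells. The members are a list of gene symbols, and all 33 were found among the 27179 genes of the deposited count table. Each of the 33 also passed the filter on low counts, which kept 13184 genes for testing. Fads2 passed it only through its counts in vitro. Of the members, 7 act in the mevalonate and isoprenoid steps, 11 in the squalene and sterol steps, 5 in control of the pathway or in carrying sterol, 4 in fatty acid synthesis, 4 as desaturases and 2 in sterol export.

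The study profiled bulk RNA of NK cells from C57BL/6 mice in 4 groups of 2 libraries, with cells of either genotype, wild type or CIS-null, profiled either ex vivo or in vitro. CIS is the cytokine-induced SH2 protein encoded by Cish, a feedback inhibitor of cytokine signalling, and the CIS-null cells carry the genotype CIS-/-. The cells came from spleen, bone marrow and blood, and were enriched with microbeads against CD49b (DX5). Each library thus reads a bead-enriched population, which may hold other cells. The labels do not give the medium, cytokines or duration of the culture, the age of the mice, or whether the 2 libraries of a group came from separate animals, so the p-values measure the spread between libraries, which may be technical.

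Cholesterol is built from acetyl-CoA through mevalonate, isoprenoid units, squalene and a chain of sterol intermediates, and the same isoprenoid units feed ubiquinone, dolichol and prenylated proteins. Transcription of these enzymes is driven by SREBP proteins, which the escort protein SCAP carries out of the endoplasmic reticulum when membrane sterol is low and which INSIG proteins hold back when sterol is high. Excess sterol instead raises oxysterols, which activate the LXR receptors and with them the exporters Abca1 and Abcg1. Lymphocytes that are activated by cytokines draw on sterols and fatty acids to build membrane.

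The element that SREBP proteins bind was looked for in the promoters of the members, because most of the members are known as SREBP targets. RefSeq promoter sequences of build GRCm38.p6, covering 250 bases before to 50 bases after the start site, were at hand for 25 of the 33 members, as 31 promoters. The sterol regulatory element core TCACNCCAC was searched on both strands and stood in 1 of the 31, that of Hmgcs1, against 408 of all 32851 promoters in the table (1.24%). It is printed here because it was the only one of the 31 that held the core. Hmgcs1 is a textbook SREBP target, and its level changed about as much as the median mevalonate gene. The region is chr13:119690101-119690400 on the plus strand, and the capitals mark the match, whose first base lies at -137 from the start site.
Hmgcs1: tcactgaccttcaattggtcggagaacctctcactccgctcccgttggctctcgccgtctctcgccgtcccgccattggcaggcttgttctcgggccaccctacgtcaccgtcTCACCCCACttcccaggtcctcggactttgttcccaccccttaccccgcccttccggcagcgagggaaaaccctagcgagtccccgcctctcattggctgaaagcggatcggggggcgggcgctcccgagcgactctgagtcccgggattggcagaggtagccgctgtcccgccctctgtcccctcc
The E box CACGTG, searched in the same way, was in 7 of the 31 member promoters (22.6%). These belong to 6 of the 25 genes, because Scap has overlapping promoter windows. The E box was in 7.15% of all promoters and in 9.8% of the promoters of tested genes. The NF-Y box CCAAT, which can stand beside SREBP elements, was in 20 of the 31 (64.5%). It was in 37.4% of all promoters and in 38% of those of tested genes. By gene, 14 of the 15 mevalonate and sterol genes in the table held an NF-Y box, and 5 of the 10 other members did. These are matches of letters in a short window, and binding was not measured.

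Total counts ran from 21485710 to 28065268 per library. NK cell markers summed to 18076 to 33759 CPM in each library, where CPM is a gene's count scaled by the normalised library size. Ncr1 and Klrb1c were abundant in all 4 groups. Most single NK cell markers nevertheless fell with the state. Of the 10 tested, 8 were lower in vitro and 1 was higher, with the same counts for either genotype. Their median log2 change was -1.27 for the wild-type libraries and -1.50 for the CIS-null libraries. Whether this fall bears on the members was not tested. Cish stood at 9.25 and 9.11 CPM in wild-type cells ex vivo and 1.29 and 2.63 in CIS-null cells, and at 219.8 and 202 against 21.2 and 17.2 in vitro, so both genotype labels matched its level. Sex-linked genes differed between groups. Xist stood at 119.6 and 162 CPM in wild-type cells ex vivo and at 130.7 and 89.6 in CIS-null cells in vitro, and at 0.322 or less elsewhere. Ddx3y, on the Y chromosome, stood at 0.0400 CPM or less in the CIS-null libraries in vitro and at 28.1 or more in all other libraries, those of wild-type cells ex vivo included. Sex-linked levels thus changed with state in each genotype and with genotype in each state. Sex therefore cannot be told apart from culture, from genotype or from their interaction in these groups, and the members Ebp and Nsdhl are X-linked.

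Placing NK cells in vitro went with a rise of most of the cholesterol pathway. In wild-type cells 25 of the 33 members were higher in vitro, where 32.1% of all tested genes were higher, and 4 were lower, where 31.6% of all tested genes were lower. The median log2 change of the members was 1.58, and that of all 13184 tested genes was -0.00. In CIS-null cells 24 members were higher, against 34.8% of all tested genes, and 4 were lower, against 37.5%, with a median of 1.92 beside -0.05. The wild-type and CIS-null comparisons have no library in common. Both were read from the same fit, which estimates the spread over all 8 libraries, so their calls are not independent. All 24 members called higher in CIS-null cells were among the 25 of wild-type cells, the remaining one being Fasn. The same 4 members, Acly, Elovl6, Abca1 and Abcg1, were lower in both. As a share of all counts, the 33 members together took 0.226% to 0.242% in the 4 libraries ex vivo and 0.372% to 0.404% in the 4 in vitro. The 18 mevalonate and sterol genes alone took 0.0381% to 0.0438% ex vivo and 0.145% to 0.172% in vitro. Calls are adjusted p under 0.05 by edgeR's quasi-likelihood test with Benjamini-Hochberg adjustment over all tested genes, and changes are log2 ± SE throughout. In bulk RNA, fewer cells of a type and less RNA per cell cannot be told apart.

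**Figure D1:**
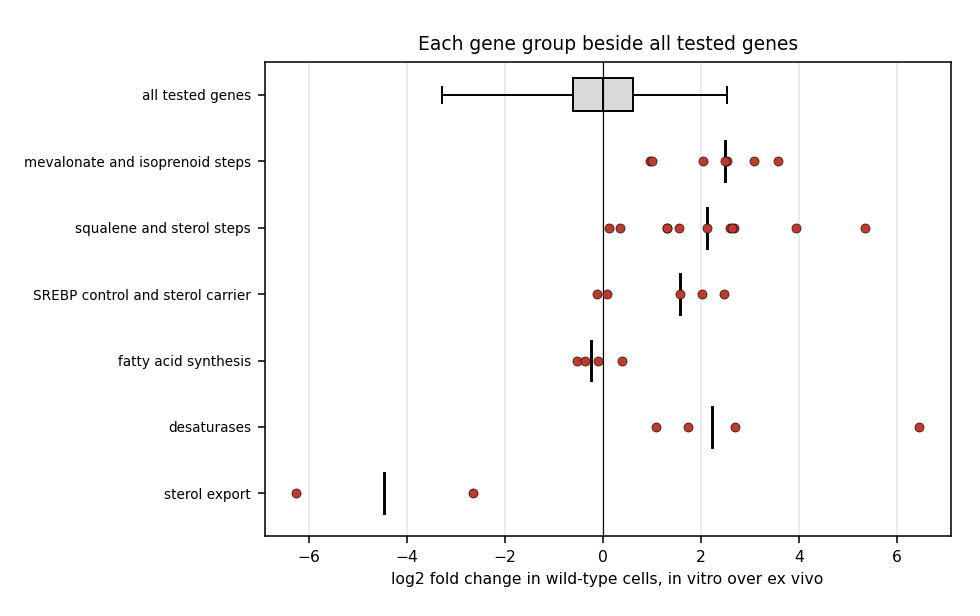
Log2 fold change in wild-type cells, in vitro over ex vivo (horizontal axis), for the 6 groups of members (1 point per gene, black bar at the group's median) and for all 13184 tested genes (box from first to last quartile, whiskers at the 5th and 95th percentiles). The mevalonate group has its median at 2.49 and the sterol export group at -4.46, while the fatty acid synthesis group has its median at -0.24.

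All 7 mevalonate and isoprenoid genes rose in both genotypes, with a median log2 change of 2.49 in wild-type cells and 2.50 in CIS-null cells. The pathway starts with Acat2, which joins acetyl-CoA units, and Hmgcs1, which makes HMG-CoA. Acat2 stood at 10.4 and 11.3 CPM in wild-type cells ex vivo and 21 and 20.9 in vitro, and at 14.3 and 14.2 ex vivo and 18.2 and 21.1 in vitro in CIS-null cells. Its rise was the smallest of the group in both genotypes (log2 0.95 ± 0.12, adjusted p = 0.0002, and 0.46 ± 0.12, adjusted p = 0.00676). How reads shared with the related gene Acat3 were counted is not given in the sources used here. Hmgcs1 stood at 48 and 44.2 CPM in wild-type cells ex vivo and 267 and 268 in vitro, and at 46.3 and 51.9 ex vivo and 252 and 303 in vitro in CIS-null cells. The libraries in vitro were 5.80-fold above those ex vivo in wild-type cells and 5.65-fold in CIS-null cells (log2 2.54 ± 0.12, adjusted p = 1.05e-06, and 2.50 ± 0.12, adjusted p = 8.7e-07).

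Mvk, Pmvk and Mvd turn mevalonate into isopentenyl pyrophosphate by phosphorylation and decarboxylation. Mvk moved from 7.03 and 6.59 CPM ex vivo to 30.5 and 25.3 in vitro in the wild-type libraries, and from 7.51 and 6.06 to 28.9 and 36.2 in the CIS-null libraries. Pmvk moved from 7.78 and 8.21 CPM ex vivo to 18 and 14 in vitro in the wild-type libraries, and from 7.51 and 6.65 to 21 and 28.3 in the CIS-null libraries. Mvd moved from 10.1 and 10.1 CPM ex vivo to 59.3 and 54.1 in vitro in the wild-type libraries, and from 8.11 and 9.95 to 71 and 79 in the CIS-null libraries. In none of the 3 did any library in vitro reach down to the range ex vivo, and log2 changes ran from 1.00 (Pmvk) to 2.49 (Mvd) in wild type, and from 1.80 to 3.05 in CIS-null cells. The largest adjusted p among these 6 tests was 0.00167, for Pmvk in wild type. Idi1 interconverts the isoprenoid units and Fdps joins them into farnesyl pyrophosphate, the branch point towards sterols, ubiquinone and prenyl groups. Idi1 moved from 3.16 and 3.39 CPM ex vivo to 27.9 and 27.9 in vitro in the wild-type libraries, and from 2.49 and 3.58 to 31.2 and 41.6 in the CIS-null libraries. Fdps moved from 2.82 and 2.53 CPM ex vivo to 31.3 and 32.2 in vitro in the wild-type libraries, and from 2.26 and 2.16 to 45.3 and 56 in the CIS-null libraries. Both rose more than the other mevalonate genes in both genotypes, Idi1 at log2 3.09 ± 0.20, adjusted p = 5.13e-06, and 3.57 ± 0.20, adjusted p = 1.93e-06, and Fdps at 3.57 ± 0.15, adjusted p = 6.22e-07, and 4.52 ± 0.16, adjusted p = 2.32e-07. In the GENCODE M21 annotation 77.4% of the exon bases of Fdps lie in the same-strand gene Gm43738, and how the authors' counting split such reads is not given in the sources used here.

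Of the 11 squalene and sterol genes, 10 rose in both genotypes, with a median of 2.13 in wild-type cells and 2.29 in CIS-null cells. Fdft1 makes squalene, Sqle epoxidises it in a rate-limiting step, and Lss closes the ring to lanosterol. Sqle (chr15:59315092-59331193 in GRCm38.p6) rose 41-fold in wild-type and 49.5-fold in CIS-null cells, the most of any enzyme of the mevalonate and sterol steps. It stood at 2.52 and 2.72 CPM in wild-type cells ex vivo and 108 and 108 in vitro, and at 2.35 and 2.68 ex vivo and 119 and 131 in vitro in CIS-null cells. The 4 libraries ex vivo held 51 to 69 raw counts for Sqle, and the 4 in vitro 3065 to 3278 (log2 5.36 ± 0.12, adjusted p = 5.19e-08, and 5.63 ± 0.12, adjusted p = 3.62e-08). Fdft1 moved from 13 and 10.4 CPM ex vivo to 53.1 and 49.2 in vitro in the wild-type libraries, and from 14.2 and 13.9 to 56.3 and 63 in the CIS-null libraries. Its 2 rises were of much the same size (log2 2.13 ± 0.13 and 2.09 ± 0.13), although 20.9% of its exon bases overlap Ctsb on the other strand and the strand setting of the counting is not given in the sources used here. Ctsb itself changed by 0.03 (adjusted p = 0.823) in wild-type cells and -0.07 (adjusted p = 0.585) in CIS-null cells. Lss moved from 13.3 and 12.8 CPM ex vivo to 81 and 85.5 in vitro in the wild-type libraries, and from 14.4 and 14.9 to 98 and 102 in the CIS-null libraries. Smaller overlaps with a gene on the other strand, from 4.22% to 16% of exon bases, are annotated for Hmgcs1, Idi1, Lss and Cyp51. All in vitro libraries of Lss stood above all ex vivo libraries, with adjusted p of 3.01e-07 and 2.05e-07.

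Lanosterol is then demethylated and reduced by Cyp51, Tm7sf2, Msmo1, Nsdhl and Hsd17b7. Cyp51, the 14-alpha demethylase, stood at 13.6 and 12 CPM in wild-type cells ex vivo and 193 and 198 in vitro, and at 15.2 and 14.6 ex vivo and 223 and 265 in vitro in CIS-null cells. It rose 15.3-fold in wild-type cells and 16.4-fold in CIS-null cells (log2 3.93 ± 0.12, adjusted p = 2.44e-07, and 4.04 ± 0.12, adjusted p = 1.55e-07). Msmo1, which removes the methyl groups at carbon 4, moved from 26.3 and 26.1 CPM ex vivo to 162 and 153 in vitro in the wild-type libraries, and from 31.9 and 26.4 to 189 and 251 in the CIS-null libraries. Its partners in that step are Nsdhl and Hsd17b7. Nsdhl moved from 22.3 and 23.2 CPM ex vivo to 47.4 and 64.8 in vitro in the wild-type libraries, and from 28.5 and 24.1 to 48.2 and 59.6 in the CIS-null libraries. Hsd17b7 moved from 6.73 and 5.41 CPM ex vivo to 39.8 and 36.1 in vitro in the wild-type libraries, and from 7.78 and 7.16 to 53.6 and 66.1 in the CIS-null libraries. Every library in vitro was above every library ex vivo for all 3. Log2 changes were 2.58 and 2.92 for Msmo1, 1.30 and 1.04 for Nsdhl, and 2.64 and 3.0 for Hsd17b7, in wild-type and CIS-null cells respectively. A sterol reductase of the same stretch is Tm7sf2. It moved from 2.44 and 1.82 CPM ex vivo to 6.64 and 5.80 in vitro in the wild-type libraries, and from 3.04 and 2.01 to 10.7 and 13.8 in the CIS-null libraries. All its libraries in vitro were above those ex vivo, and it passed in both genotypes (adjusted p = 0.000933 and 6.36e-05).

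Dhcr7 and Ebp, both late in the chain, changed least of the 11. Ebp, the sterol isomerase, moved from 94.4 and 89.1 CPM ex vivo to 119 and 115 in vitro in the wild-type libraries, and from 115 and 94.7 to 141 and 159.7 in the CIS-null libraries. Its rise was small (log2 0.35 ± 0.12, adjusted p = 0.0258, and 0.52 ± 0.12, adjusted p = 0.00352), and in wild type it did not pass when either library of either wild-type group was left out (adjusted p = 0.0725 to 0.148). Sc5d, the desaturase before the last step, moved from 39.5 and 39.9 CPM ex vivo to 96 and 102 in vitro in the wild-type libraries, and from 47.1 and 39.2 to 107 and 131 in the CIS-null libraries. That rise was larger, at log2 1.31 ± 0.13 and 1.47 ± 0.13. Dhcr7, which reduces 7-dehydrocholesterol to cholesterol, stood at 59 and 60 CPM in wild-type cells ex vivo and 66.5 and 63.3 in vitro, and at 65.2 and 64.6 ex vivo and 59.2 and 62.1 in vitro in CIS-null cells. Taken over both genotypes, its ranges ex vivo and in vitro overlapped, and its change was 0.13 ± 0.08, adjusted p = 0.21, in wild-type cells and -0.10 ± 0.08, adjusted p = 0.309, in CIS-null cells. With each library's trend with gene length removed it passed in wild type (0.21, adjusted p = 0.0300), and with library totals it was lower in CIS-null cells (-0.22, adjusted p = 0.0363).

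Per gene length, in RPKM (counts scaled by library size and by gene length), the enzymes of the chain stood far apart ex vivo and closer together in vitro. In wild-type cells ex vivo Sqle was the lowest of the 18 enzyme genes at 0.919 and 0.991 RPKM and Ebp the highest at 54.2 and 51.2. In vitro Tm7sf2 was lowest at 4.49 and 3.92 and Msmo1 highest at 88.9 and 83.7. Sqle reached 39.3 and 39.2 RPKM in vitro, above Lss at 26.1 and 27.6 and Fdft1 at 18.5 and 17.2, although ex vivo it lay below both. Dhcr7, at 20.9 and 21.3 ex vivo, was next to Ebp, and in vitro, at 23.6 and 22.5, it lay near Nsdhl and Fdps.

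**Figure D2:**
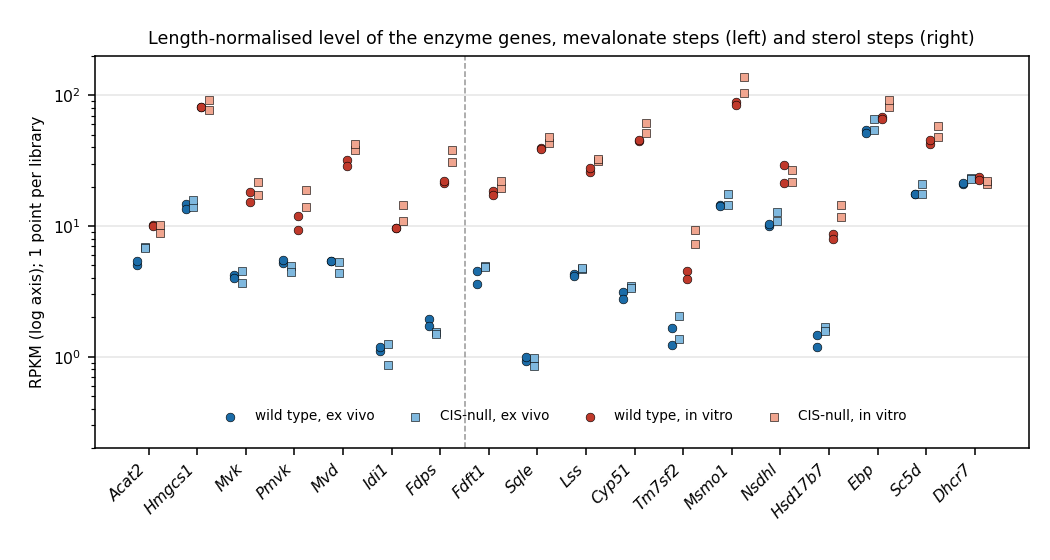
Level per gene length (RPKM, log axis) of the 7 mevalonate genes and the 11 sterol genes in pathway order, 1 point per library, coloured by group. Sqle goes from 0.919 and 0.991 ex vivo to 39.3 and 39.2 in vitro in the wild-type libraries, while Dhcr7 stays between 20.9 and 21.3 ex vivo and 23.6 and 22.5 in vitro.

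Among the genes that control the pathway, Srebf2 rose, and the call of Srebf1 depended on the treatment of gene length. Srebf2 encodes SREBP2, which acts mainly on sterol genes, and stood at 110.4 and 109 CPM in wild-type cells ex vivo and 445 and 452 in vitro, and at 106 and 107 ex vivo and 402 and 343 in vitro in CIS-null cells. Every library in vitro was above every library ex vivo, 4.09-fold in wild-type cells and 3.50-fold in CIS-null cells (log2 2.03 ± 0.10, adjusted p = 1.4e-06, and 1.81 ± 0.10, adjusted p = 1.76e-06). Srebf1 encodes the SREBP1 forms, which act mainly on fatty acid genes, and stood at 136 and 135 CPM in wild-type cells ex vivo and 143 and 144 in vitro, and at 125 and 128 ex vivo and 134 and 121 in vitro in CIS-null cells. The values of the 2 states lay close together in wild-type cells and overlapped in CIS-null cells, with a change of 0.08 ± 0.09, adjusted p = 0.451, in wild-type cells and 0.01 ± 0.09, adjusted p = 0.926, in CIS-null cells. With the length trend removed Srebf1 was higher in both (0.34, adjusted p = 0.0020, and 0.45, adjusted p = 0.000286). Gene-level counts do not separate the 2 promoter forms of Srebf1.

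Scap, the escort, stood at 95.2 and 95.9 CPM in wild-type cells ex vivo and 87.6 and 87.9 in vitro, and at 96.9 and 97.1 ex vivo and 94.7 and 82.9 in vitro in CIS-null cells. Every library in vitro was below every library ex vivo, by a small margin. It changed by -0.12 ± 0.09, adjusted p = 0.26, and by -0.13 ± 0.09, adjusted p = 0.236, so neither passed. In wild type it passed when the compared groups were fitted alone (-0.13, adjusted p = 0.0363), and in CIS-null cells with library totals (-0.25, adjusted p = 0.0448). When the length trend was removed instead, the sign turned (0.13, adjusted p = 0.122, and 0.31, adjusted p = 0.00318). Scap also shares 18.6% of its exon bases with 5830462I19Rik on the other strand. Insig1, which retains SCAP in the endoplasmic reticulum and is itself an SREBP target, moved from 26.3 and 23 CPM ex vivo to 73.3 and 74.2 in vitro in the wild-type libraries, and from 25.5 and 20.9 to 84.5 and 90.4 in the CIS-null libraries. All 4 libraries in vitro were above all 4 ex vivo (log2 1.58 ± 0.12, adjusted p = 1.25e-05, and 1.92 ± 0.12, adjusted p = 3.29e-06). Stard4, which carries cholesterol between membranes, moved from 27.5 and 27.7 CPM ex vivo to 153 and 155 in vitro in the wild-type libraries, and from 26.6 and 30.5 to 166 and 187 in the CIS-null libraries. Its rise was 5.57-fold in wild-type cells and 6.19-fold in CIS-null cells (log2 2.48 ± 0.11, adjusted p = 7.11e-07, and 2.63 ± 0.11, adjusted p = 4.07e-07).

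**Figure D3:**
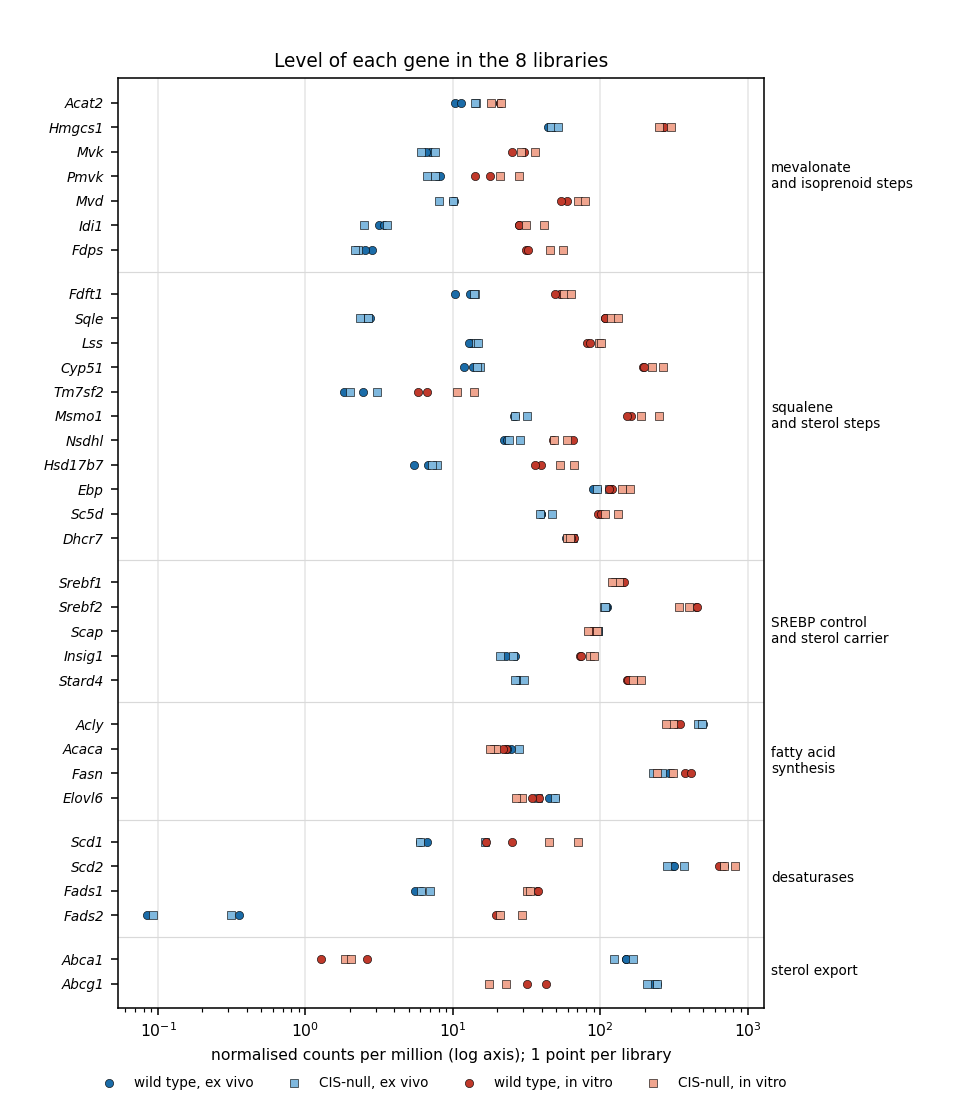
Level of each of the 33 genes (CPM, log axis) in the 8 libraries, 1 point per library, coloured by group and ordered by role. The mevalonate and sterol genes shift right in vitro, the libraries of the 2 states overlap for Srebf1 and Dhcr7, and Abca1 goes from 150.0 and 150.1 in wild-type cells ex vivo to 2.61 and 1.26 in vitro.

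Of the 4 fatty acid synthesis genes, Acly and Elovl6 fell in both genotypes, Fasn rose in wild type and Acaca did not pass, and all but Acly changed call or direction in at least 1 genotype when the trend with gene length was removed. Acly, which makes cytosolic acetyl-CoA from citrate, stood at 496 and 472 CPM in wild-type cells ex vivo and 325 and 345 in vitro, and at 456 and 488 ex vivo and 309 and 277 in vitro in CIS-null cells. It fell in both genotypes (log2 -0.53 ± 0.10, adjusted p = 0.00158, and -0.69 ± 0.10, adjusted p = 0.000268). Acaca, the carboxylase that makes malonyl-CoA, moved from 24.9 and 23.2 CPM ex vivo to 22.9 and 21.7 in vitro in the wild-type libraries, and from 19.1 and 28.1 to 19.7 and 18 in the CIS-null libraries. Its change did not pass in either genotype (-0.11 ± 0.17, adjusted p = 0.598, and -0.33 ± 0.17, adjusted p = 0.112), and with the length trend removed it was positive and passed in both (0.43, adjusted p = 0.0123, and 0.57, adjusted p = 0.00236).

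Fasn, the synthase that builds palmitate, stood at 304 and 293 CPM in wild-type cells ex vivo and 374 and 411 in vitro, and at 227 and 261 ex vivo and 312 and 242 in vitro in CIS-null cells. The wild-type libraries in vitro lay above those ex vivo, and the CIS-null libraries of the 2 states overlapped. Fasn rose in wild type (log2 0.39 ± 0.13, adjusted p = 0.0299) and did not pass in CIS-null cells (0.18 ± 0.13, adjusted p = 0.245). The wild-type call did not pass without either library of either wild-type group (adjusted p = 0.0671 to 0.145). Fasn is one of the longest transcripts among the members. Without the length trend, Fasn changed by 0.97 in wild type (adjusted p = 2.26e-05) and by 1.11 in CIS-null cells (adjusted p = 7.33e-06). The CIS-null change was 0.36 (adjusted p = 0.0342) without CIS-null in vitro replicate 2 and -0.01 (adjusted p = 0.955) without replicate 1. Elovl6, which lengthens palmitate, moved from 49.4 and 44.5 CPM ex vivo to 38.3 and 34.6 in vitro in the wild-type libraries, and from 38 and 49.2 to 29.6 and 26.7 in the CIS-null libraries. It fell in both (log2 -0.37 ± 0.14, adjusted p = 0.0426, and -0.63 ± 0.14, adjusted p = 0.00303), and with the length trend removed its change was 0.01 (adjusted p = 0.912) and 0.03 (adjusted p = 0.838). In wild type it also did not pass when any 1 library of either wild-type group or of the CIS-null group in vitro was left out (adjusted p = 0.0539 to 0.221). Fasn, Acaca and Elovl6 are long transcripts, and over all tested genes the change in vitro fell with gene length (Spearman -0.226 in wild-type cells and -0.307 in CIS-null cells, across genes, which are not independent).

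All 4 desaturase genes rose in both genotypes, with a median of 2.22 in wild-type cells and 2.34 in CIS-null cells. Scd1 and Scd2 place the first double bond in saturated fatty acids, and per gene length Scd2 was the more abundant, at 57 and 58.2 RPKM in wild-type cells ex vivo against 1.37 and 1.23 for Scd1. Scd2 moved from 311 and 317 CPM ex vivo to 636 and 689 in vitro in the wild-type libraries, and from 283 and 369 to 687 and 819 in the CIS-null libraries. Scd1 moved from 6.65 and 5.96 CPM ex vivo to 25.3 and 16.8 in vitro in the wild-type libraries, and from 16.5 and 5.94 to 44.6 and 70.1 in the CIS-null libraries. The Scd2 libraries in vitro lay close to 2-fold above those ex vivo (log2 1.08 ± 0.14, adjusted p = 0.000273, and 1.21 ± 0.14, adjusted p = 9.44e-05), while Scd1 varied more between libraries of a group than Scd2 and its SE was the larger (log2 1.74 ± 0.44, adjusted p = 0.00795, and 2.37 ± 0.42, adjusted p = 0.001). Without wild-type ex vivo replicate 2 the wild-type rise of Scd1 did not pass (1.67, adjusted p = 0.0571). Scd1 in CIS-null replicate 1 ex vivo, at 16.5 CPM, almost reached the lower wild-type library in vitro. Scd1 and Scd2 are related in sequence, and how reads shared between them were counted is not given in the sources used here.

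Fads1 and Fads2 desaturate polyunsaturated fatty acids. Fads1 moved from 6.06 and 5.53 CPM ex vivo to 37.1 and 37.8 in vitro in the wild-type libraries, and from 7.05 and 6.10 to 31.8 and 33.5 in the CIS-null libraries. Fads2 moved from 0.0842 and 0.355 CPM ex vivo to 20.6 and 19.6 in vitro in the wild-type libraries, and from 0.0921 and 0.315 to 20.9 and 29.3 in the CIS-null libraries. Fads2 (chr19:10062765-10101503) was close to undetected ex vivo, with 2 and 9 raw counts in wild-type and 2 and 8 in CIS-null libraries, against 543 to 732 in the 4 libraries in vitro. Its log2 change of 6.46 ± 0.40, adjusted p = 4.45e-06, in wild-type cells and 6.86 ± 0.41, adjusted p = 2.46e-06, in CIS-null cells was the largest rise among the members, and its size rests on those few counts. Fads1 rose by 2.69 ± 0.12, adjusted p = 8.13e-07, and 2.31 ± 0.12, adjusted p = 1.16e-06.

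**Figure D4:**
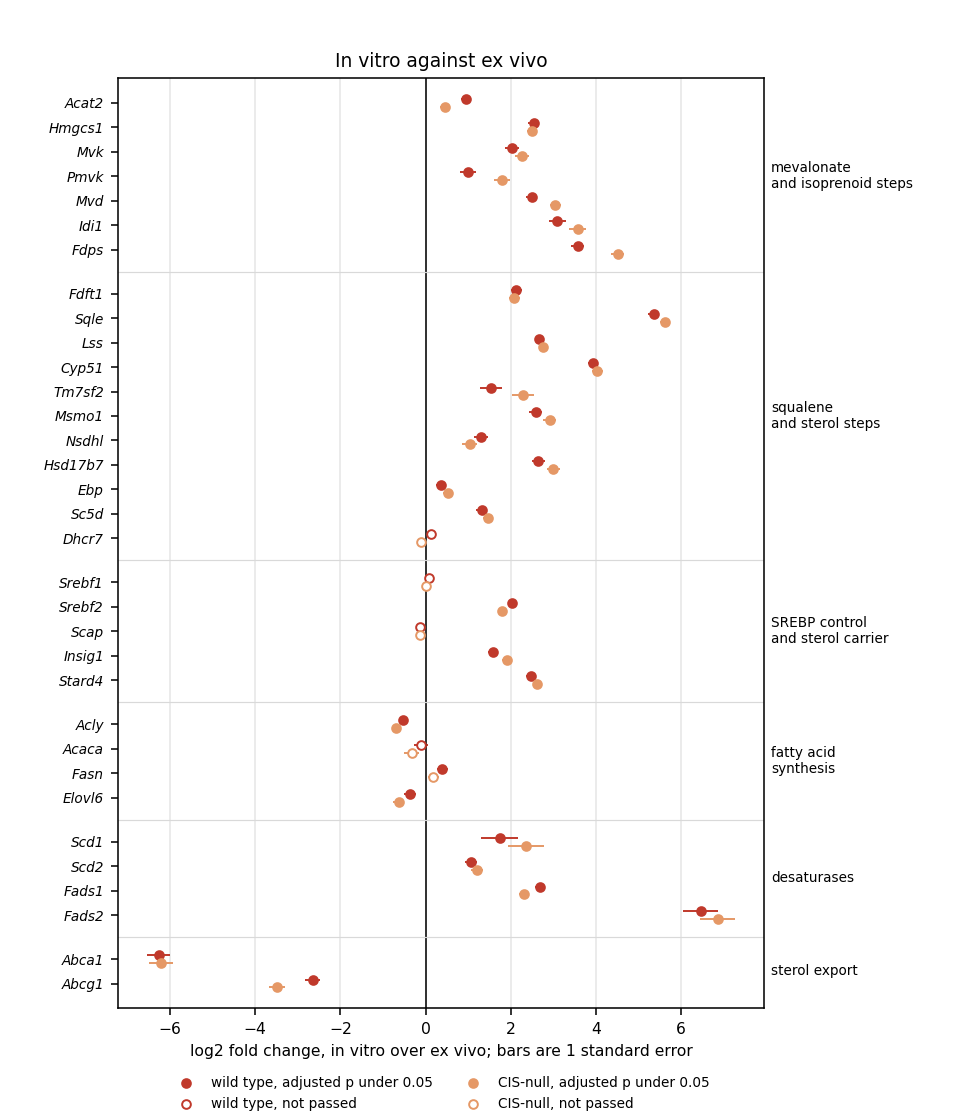
Log2 fold change in vitro over ex vivo (horizontal axis, bars 1 SE) of the 33 genes in wild-type and CIS-null cells. Filled points passed at adjusted p under 0.05, 29 of 33 in wild-type cells and 28 of 33 in CIS-null cells, and Sqle, at 5.36 and 5.63, is the highest of the sterol genes.

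Both sterol export genes fell. Abca1 (chr4:53030789-53159988), which loads cholesterol onto apolipoproteins, fell 77.2-fold in wild-type and 74.1-fold in CIS-null cells, the largest fall among the members. It stood at 150.0 and 150.1 CPM in wild-type cells ex vivo and 2.61 and 1.26 in vitro, and at 166 and 123 ex vivo and 1.85 and 2.04 in vitro in CIS-null cells. No library in vitro came near the range ex vivo (log2 -6.27 ± 0.27, adjusted p = 7.16e-07, and -6.21 ± 0.27, adjusted p = 5.71e-07). Abcg1, which passes cholesterol to high-density lipoprotein, stood at 227 and 243 CPM in wild-type cells ex vivo and 31.8 and 43.1 in vitro, and at 209 and 244 ex vivo and 22.7 and 17.5 in vitro in CIS-null cells. It fell 6.28-fold in wild-type cells and 11.2-fold in CIS-null cells (log2 -2.65 ± 0.18, adjusted p = 6.13e-06, and -3.49 ± 0.18, adjusted p = 1.34e-06).

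Macrophages also express Abca1 and Abcg1, and their markers moved with the state. Of 10 tested monocyte and macrophage markers 8 fell in vitro in wild type, 1 rose (Cd68), and 1 did not pass. The summed level of the list was 104 to 187 CPM in the 4 libraries ex vivo and 18.3 to 29.2 in the 4 in vitro. Cd68 made up most of the latter, and Csf1r, Fcgr1, Mertk and C1qc were at 0.0385 CPM or less in every library in vitro. B cell markers likewise summed to 6.41 to 72.9 CPM ex vivo and 0.209 to 0.732 in vitro. The part of these cells in the fall of Abca1 and Abcg1 was not tested. Proliferation genes rose with the sterol genes, 16 of 18 in each genotype with a median log2 change of 2.76 in wild-type cells and 2.28 in CIS-null cells. Their summed level was 855 to 1046 CPM ex vivo and 2215 to 2562 in vitro, and their part in the rise of the members was not tested.

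The lists of neighbouring genes stand beside 32.1% higher and 31.6% lower over all tested genes in wild type, and 34.8% and 37.5% in CIS-null cells. Of 16 other sterol and SREBP genes, 4 were higher and 5 lower in wild-type cells in vitro, and 4 higher and 6 lower in CIS-null cells. Erlin1, part of a complex in the endoplasmic reticulum that restrains SREBP, rose by 1.11 and 1.29, and Cyb5r3, a cytochrome reductase that serves sterol and fatty acid desaturation, fell (-0.88 and -1.05). In the isoprenoid branch 6 of 11 genes were higher and 1 lower in wild type, and 7 and 1 in CIS-null cells. Pdss1 and Coq2, which build ubiquinone, rose by 1.67 and 1.51 in wild type, and Rabggtb, a subunit of the Rab prenyl transferase, by 1.14.

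Of 12 tested genes of cholesterol uptake, storage and LXR response, 3 were higher and 6 lower in wild-type cells in vitro, and 4 and 7 in CIS-null cells. Arl4c and Mylip, known as LXR targets, both fell and are named for the size of their change. The part of LXR in these falls was not tested. Arl4c went from a mean of 749 to 105 CPM in wild type (log2 -2.83, and -2.71 in CIS-null cells), and Mylip from 349 to 59.8 (-2.54 and -3.11). Soat1, which esterifies cholesterol for storage, rose by 0.96 and 0.84. Among 15 tested genes of fatty acid synthesis, elongation and activation outside the members, 7 were higher and 6 lower in wild type, and 7 and 7 in CIS-null cells. The largest changes there were falls, with Elovl7, an elongase, at -4.10, Lpin1, a phosphatidate phosphatase, at -2.75 and Acss2, an acetyl-CoA synthetase, at -2.05 in wild type. Of 17 tested genes of fatty acid oxidation, 9 were higher and 2 lower in wild-type cells and 8 and 4 in CIS-null cells. Cpt1a, the gate of fatty acid entry into mitochondria, fell (-1.59 and -2.44). Etfb, an electron carrier of that pathway, rose by 1.55 and 1.84 and Acot13 by 0.87 and 1.03.

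No member passed between the genotypes ex vivo. By edgeR 0 of the 33 were higher and 0 lower in CIS-null cells ex vivo, where 0.0303% of all tested genes were higher and 0.0303% lower. DESeq2 and limma-voom also called 0. With the 2 groups ex vivo fitted alone, 32 members passed the filter, and Fads2 held 2 to 9 raw counts in each library ex vivo. At an unadjusted p under 0.05 there was 1, Acat2, at 14.3 and 14.2 CPM in CIS-null against 10.4 and 11.3 in wild-type cells (log2 0.40 ± 0.12, adjusted p = 0.706). The changes ran from -0.29 (Fasn) to 0.82 (Scd1), with a median of 0.02 in the members and 0.02 over all tested genes. The value of Scd1 came from 1 library, and without CIS-null ex vivo replicate 1 it was -0.09 (adjusted p = 0.996). Of the 11 squalene and sterol genes 10 had a positive change, none of which passed, and they ran up to 0.30. Changes were positive in 2 of the 7 mevalonate genes, 17 of the 33 members and 7218 of the 13184 tested genes.

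In vitro, a part of the members differed by genotype. In CIS-null cells 8 members were higher, where 11.0% of all tested genes were higher, and 2 were lower, where 14.6% of all tested genes were lower. The median change was 0.21 over the members and 0.00 over all tested genes, and 15 members had an unadjusted p under 0.05. The 8 were Pmvk, Mvd and Fdps of the mevalonate steps, Lss, Tm7sf2, Msmo1 and Hsd17b7 of the sterol steps, and the desaturase Scd1. The 2 lower members were Fasn and Abcg1. These calls depended on single libraries and on scaling. Without wild-type in vitro replicate 1 or CIS-null in vitro replicate 2 there were 0 higher calls, without wild-type in vitro replicate 2 there was 1, without either wild-type library ex vivo there were 3, and without CIS-null in vitro replicate 1 there were 11. The lower calls were 0 without wild-type in vitro replicate 2 or CIS-null in vitro replicate 2, 1 without any other wild-type library, and 3 without any of the 3 remaining libraries. The calls over all tested genes fell alongside, from 1445 higher and 1929 lower to 187 and 313 without CIS-null in vitro replicate 2. Scaling by library totals gave 4 higher and 7 lower, and moved the median of all tested genes by -0.13.

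Fdps had the lowest adjusted p of the 8, at 45.3 and 56 CPM in CIS-null against 31.3 and 32.2 in wild-type cells. Both CIS-null libraries were above both wild-type libraries, 1.59-fold on average (log2 0.67 ± 0.12, adjusted p = 0.00869). Hsd17b7 stood at 53.6 and 66.1 against 39.8 and 36.1 CPM (log2 0.66 ± 0.13, adjusted p = 0.0122), and Tm7sf2 at 10.7 and 13.8 against 6.64 and 5.80 (log2 0.98 ± 0.23, adjusted p = 0.0192). Scd1 had the widest gap and the widest spread, 44.6 and 70.1 against 25.3 and 16.8 CPM (log2 1.44 ± 0.40, adjusted p = 0.0323). These 4 were the ones still higher when libraries were scaled by their totals. The other 4 lost the call there: Pmvk (0.62 ± 0.18 as reported, adjusted p = 0.0347), Mvd (0.40 ± 0.11, adjusted p = 0.033), Msmo1 (0.48 ± 0.14, adjusted p = 0.0396) and Lss (0.26 ± 0.08, adjusted p = 0.0483). With the length trend removed Pmvk and Mvd lost it (adjusted p = 0.0636 and 0.0825) and the other 6 kept it. Lss was the least stable of the 8 and lost its call in 13 of 21 alternatives, DESeq2 and the fit without a filter among them (adjusted p = 0.0163 to 0.277 over the 21).

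Several sterol genes lay just outside the threshold. Ebp stood at 141 and 159.7 CPM in CIS-null and 119 and 115 in wild-type cells in vitro (0.36 ± 0.12, adjusted p = 0.0515), and Cyp51 at 223 and 265 and 193 and 198 (0.32 ± 0.11, adjusted p = 0.0594). Insig1, at 0.25 ± 0.11, adjusted p = 0.144, and Srebf2, at -0.27 ± 0.10, adjusted p = 0.073, did not pass, and their estimates had opposite signs. Some of these outcomes depended on the fit. Ebp and Cyp51 passed with DESeq2 and did not with library totals. Srebf2 passed as lower with library totals and did not with DESeq2. Srebf2 stood at 402 and 343 CPM in CIS-null against 445 and 452 in wild-type cells. Sqle, the strongest riser of the sterol steps in culture, differed by 0.21 ± 0.09, adjusted p = 0.117, between genotypes.

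Fasn and Abcg1 were the lower members. Fasn stood at 312 and 242 CPM in CIS-null and 374 and 411 in wild-type cells in vitro (log2 -0.50 ± 0.13, adjusted p = 0.0288). With the length trend removed the change of Fasn was 0.06 (adjusted p = 0.706). Over all tested genes the genotype change in vitro fell with gene length (Spearman -0.461 across genes), and the median length was 2985 bases in the members and 2683 in all tested genes. Abcg1 stood at 22.7 and 17.5 against 31.8 and 43.1 CPM, with both CIS-null libraries below both wild-type libraries (log2 -0.89 ± 0.18, adjusted p = 0.0106). It passed with the length trend removed (-0.55, adjusted p = 0.0263), while Abca1 was near its floor in both genotypes (0.01 ± 0.34).

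**Figure D5:**
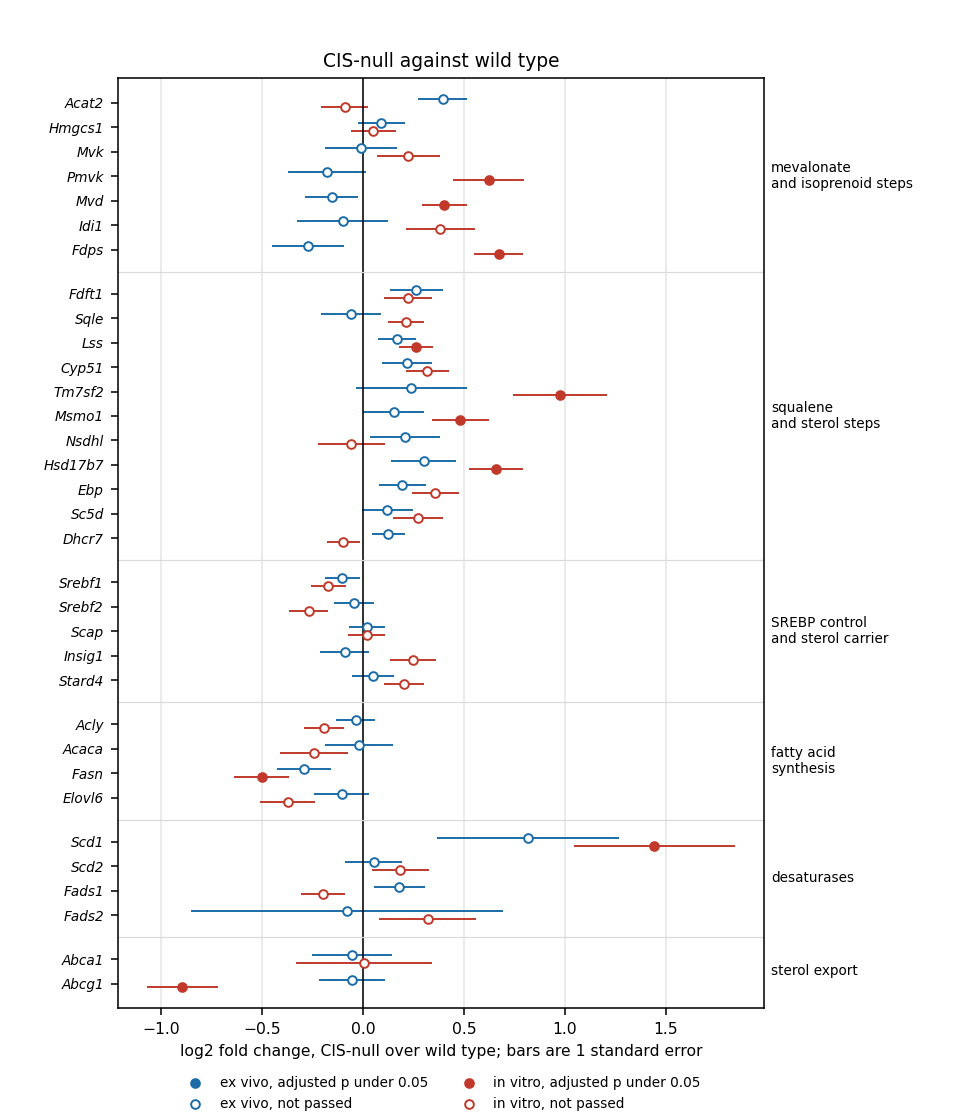
Log2 fold change of CIS-null over wild-type cells (horizontal axis, bars 1 SE) for the 33 genes ex vivo and in vitro. No point ex vivo is filled, and 10 points in vitro are filled, 8 to the right, up to Scd1 at 1.44, and 2 to the left, Fasn at -0.50 and Abcg1 at -0.89.

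The CIS-null libraries in vitro also differed in cell markers. T cell markers summed to 836 to 879 CPM there, 183 to 200 in wild type in vitro and 83.4 to 99.4 ex vivo, with 6 of 10 higher by genotype in vitro. Cd3g, Cd3d and Cd3e made up most of that sum, and Cd4 was at 0.0400 CPM or less in both CIS-null libraries. Between the states the 10 markers went both ways. In vitro 2 were higher and 5 lower in wild type (median log2 -0.74), and 5 higher and 3 lower in CIS-null cells (median 0.45). The summed proliferation genes stood at 2215 to 2286 CPM in CIS-null and 2442 to 2562 in wild-type cells in vitro. The part of the T cell genes in the genotype differences of the members was not tested, and sex cannot be told apart from genotype there. Around the members, 3 of 11 isoprenoid branch genes were higher in CIS-null cells in vitro (Rabggtb 0.76, Nus1 0.44, Coq2 0.43) and 0 lower. Of 17 fatty acid oxidation genes 0 were higher and 2 lower (Cpt1a -0.84, Hadha -0.33). Both lists stand beside 11.0% higher and 14.6% lower over all tested genes, and the second is near that background.

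Averaged over both states, 2 members were higher in CIS-null cells (6.05% of all tested genes) and 2 lower (9.14%). The higher ones were Hsd17b7 (0.48 ± 0.11, adjusted p = 0.0257) and Scd1 (1.13 ± 0.30, adjusted p = 0.0409), and the lower ones Fasn (-0.40 ± 0.10, adjusted p = 0.0313) and Abcg1 (-0.48 ± 0.12, adjusted p = 0.0356). Relative log expression factors gave 4 higher and 2 lower. Each of the 4 lost its call without either wild-type library ex vivo, wild-type in vitro replicate 2, CIS-null ex vivo replicate 1 or CIS-null in vitro replicate 2, and without wild-type in vitro replicate 1 the one left was Abcg1. There were 5 higher and 4 lower without CIS-null ex vivo replicate 2, and 7 higher and 3 lower when CIS-null in vitro replicate 1 was dropped. Whether culture acted differently on the members in CIS-null cells was tested by the interaction, which called 0 higher (0.0531% of all tested genes) and 0 lower (0.0834%) by edgeR and 0 by limma-voom. At an unadjusted p under 0.05 there were 5, and DESeq2 called 1 in each direction, the same pair that came nearest by edgeR. These were Fdps, whose rise in culture was larger in CIS-null cells by 0.95 ± 0.22, adjusted p = 0.101, and Abcg1, whose fall was larger (-0.84 ± 0.24, adjusted p = 0.136).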

How the data were processed

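RNA of 8 NK cell libraries, 2 in each of 4 groups, was sequenced. The authors deposited a table of raw read counts per gene, made with Subread and featureCounts on GRCm38 (mm10) per the submitters' processing notes, which give no versions here. The authors also deposited log2 RPKM values for 12372 genes, of which 31 are members, and limma is named in the same notes. All library columns were matched to samples by title. Groups followed the titles.

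The counts were analysed with edgeR 4.0.16 (R 4.3.3): filterByExpr with a minimum count of 10 and a minimum total of 15, TMM factors, and glmQLFit with glmQLFTest on group means of all 8 libraries, which left 4 residual degrees of freedom. Of 27179 genes, 13184 were tested and 565 had no symbol. 6 contrasts were read from this fit, p-values were adjusted over all tested genes, and the threshold was 0.05. SE is the absolute log2 change divided by the square root of F. CPM are counts scaled by the TMM library sizes, and RPKM divide these by the deposited gene length. The scripts were tested on simulated data.

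Promoters and positions came from RefSeq tables of GRCm38.p6, and exon overlaps from GENCODE M21. No promoter entry was used for Fdps, Fdft1, Sqle, Stard4, Scd1, Scd2, Fads1 and Abcg1. Alternatives covered scaling factors, filters, DESeq2 1.42.0, limma-voom and limma 3.58.1 on the deposited log2 RPKM, a robust spread, the compared groups alone, a replicate block, a gene length correction (spline of 4 degrees of freedom), removal of the 50 most abundant genes or of X- and Y-linked genes, and each library left out in turn. Replicates were compared by chi-square per degree of freedom (6.03 to 34.2), so none was a repeat deposit. The members and gene lists were chosen with earlier results of these data known. Values in each library are given for members that passed in at least 1 contrast and for Srebf1, Srebf2, Scap and Insig1, and also for Dhcr7 and Acaca, which were chosen after their values were seen. From each other pathway list at most 3 passing genes with the largest change and a mean of at least 5 CPM in 1 group are named.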

Additional observations from a re-analysis of the deposited data

How the results depend on the processing

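The culture counts kept within 1.5 times of their values under all alternatives except 1. Library totals gave 7 lower members in CIS-null cells in place of 4 (adding Scap, Acaca and Dhcr7). The median of all tested genes in that comparison was then -0.17, beside -0.05 as reported. Leaving out 1 library gave 22 to 25 higher and 3 to 4 lower members in wild type, and 24 to 25 higher and 4 to 5 lower in CIS-null cells. Removing the length trend turned the sign of Scap (0.13 in wild type, 0.31 in CIS-null cells), Acaca (0.43 and 0.57), Elovl6 (0.0143 and 0.0256) and, in CIS-null cells, Dhcr7 (0.0333), and added calls for Srebf1 in both genotypes (0.34 and 0.45) and Dhcr7 in wild type (0.21). The CIS-null change of Srebf1, 0.01 as reported, was 0.45 without the length trend, -0.11 with library totals, -0.000919 with the filter of 5 CPM in 2 libraries, and -0.0658 to 0.0886 when 1 library was left out. That of Fasn was -0.00827 to 0.36 when 1 library was left out. The genotype counts were less stable. In vitro, the 8 higher members became 4 with library totals and 4 with the replicate block, and 0 to 11 when 1 library was left out. The 2 lower members became 7 with library totals, 1 with the replicate block, 1 without the length trend (Fasn at 0.057), and 0 to 3 when 1 library was left out. Averaged over states, the 2 higher members became 4 with relative log expression factors, without the filter, without the length trend or without the 50 most abundant genes, 5 with the stricter filter, 6 with DESeq2, 1 with limma-voom, a robust spread or the replicate block, and 0 to 7 when 1 library was left out. The 2 lower ones became 0 with the replicate block or without the length trend, and 0 to 4 when 1 library was left out. For the interaction DESeq2 gave 1 higher and 1 lower member, and leaving out 1 library gave 0 to 1 higher and 0 lower. Ex vivo the genotype counts were 0 in each of these fits, and Scd1 ranged from -0.0854 to 1.39 when 1 library was left out. The cause of these changes was not tested. The correlation of replicate differences between groups took both signs (-0.379 to 0.172), so it cannot decide whether the replicate numbers pair the samples. The block result is given here only. When 1 library is left out, the lone library of its group is assumed to vary like the other groups. Depth limits Fads2 ex vivo, which rests on 2 to 9 counts a library.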
